A study of Homo sapiens with 16 samples.

Results

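The BCL2 family genes described here were 10 genes chosen by name as regulators of mitochondrial apoptosis: BBC3, PMAIP1, BID, BIK and BCL2L11 of the BH3-only class, the effectors BAX and BAK1, and the anti-apoptotic genes BCL2, BCL2L1 and MCL1. Each symbol matched 1 of the 60605 Ensembl gene identifiers in each deposited count table, and all 10 genes passed the filter on low counts in every comparison. They were measured by PRO-seq, which sequences nascent RNA held by engaged RNA polymerase, in LNCaP cells, a long-established line from human prostate cancer that depends on the androgen receptor. The study combined 6 Gy of ionizing radiation with enzalutamide, an androgen receptor antagonist. In the 1st batch the groups were labelled mock and irradiated, with no vehicle named in the treatment label. In the 2nd batch they were vehicle without radiation, vehicle with radiation, 10 µM enzalutamide without radiation, and enzalutamide with radiation. A protocol shared by all samples gave DMSO or enzalutamide for 90 min in all, with radiation after the first 30 min and 60 min allowed after it, so nascent RNA was sampled 60 min after the dose. All groups shared the same cell line and the same medium, DMEM:F12 with 5% serum and insulin, transferrin and selenium.

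BCL2 family proteins decide whether the outer membrane of the mitochondrion is opened, a step that releases cytochrome c and starts the caspases. BAX and BAK1 form the pores, BCL2, BCL2L1 (BCL-XL) and MCL1 hold them in check, and the BH3-only proteins neutralise the anti-apoptotic members or activate the effectors directly. BBC3 (PUMA), PMAIP1 (NOXA) and BAX are known as genes whose transcription responds to DNA damage. Many other family members are controlled mainly through protein stability, phosphorylation or cleavage, which nascent RNA does not record.

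The 250 bases before the start site of BBC3, PMAIP1 and BAX are shown because these were the members whose nascent RNA was higher after radiation. They come from RefSeq on GRCh38.p14 and read 5′ to 3′ on the strand of the gene. BBC3 lies at chr19:47232668-47232917 on the minus strand, PMAIP1 at chr18:59899746-59899995 on the plus strand and BAX at chr19:48954625-48954874 on the plus strand. The BBC3 start site used for this window lies inside the annotated gene, whose outermost 5′ end is farther upstream. Capitals mark each copy of CACGTG, which the PMAIP1 stretch does not hold.

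BBC3: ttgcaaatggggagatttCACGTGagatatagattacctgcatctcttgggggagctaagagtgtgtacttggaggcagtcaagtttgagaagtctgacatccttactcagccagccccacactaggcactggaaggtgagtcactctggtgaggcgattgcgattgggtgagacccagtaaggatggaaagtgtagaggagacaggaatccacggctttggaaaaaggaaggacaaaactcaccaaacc
PMAIP1: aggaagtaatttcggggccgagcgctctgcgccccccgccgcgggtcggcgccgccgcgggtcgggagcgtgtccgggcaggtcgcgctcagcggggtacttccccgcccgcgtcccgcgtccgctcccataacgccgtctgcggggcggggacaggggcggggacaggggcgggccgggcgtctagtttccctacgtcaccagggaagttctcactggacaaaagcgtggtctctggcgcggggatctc
BAX: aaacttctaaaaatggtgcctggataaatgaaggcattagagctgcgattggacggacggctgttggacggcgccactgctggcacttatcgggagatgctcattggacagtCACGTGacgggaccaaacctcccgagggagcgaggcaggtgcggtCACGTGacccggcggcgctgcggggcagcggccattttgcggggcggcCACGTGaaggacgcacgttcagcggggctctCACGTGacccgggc

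Windows of 300 bases, from 250 before to 50 after a start site, were present for 8 of the 10 genes (13 windows in all), without BIK and MCL1. CACGTG, a palindrome and so the same on both strands, occurred in 7.26% of all 35116 windows. The BAX window held 4 copies, 138, 93, 45 and 14 bases before the start, and 0.094% of all windows held 3 or more. BBC3 held 1 copy, 232 bases before the start, and 2 of the 5 BID windows held 1 each. Among the members' windows only that of BAX met the cut of 3. Whether CACGTG bears on the radiation effect was not tested.

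The 16 libraries gave 12 replicate samples, 2 per group. In the 1st batch each replicate had been deposited as a pair of libraries numbered t1 and t2, a number whose meaning the labels do not give, and their counts were summed. Library totals ran from 3438642 to 9363458 counts in the 1st batch and from 10494563 to 19905824 in the 2nd. The labels do not say that replicates came from separate cultures, so p-values measure the spread between these samples, which may be technical. All 8 luminal prostate genes checked had a median of at least 10 CPM, a unit of counts scaled to library size. Of these, KLK3 varied from 5.09 to 184 CPM between samples. The 11 markers of other cell types summed to between 17.6 and 28.6 CPM. Among them 4 were below 1 CPM in every sample, while COL1A1 reached 10.8 CPM and TP63 7.22 CPM. CDKN1A, a cell cycle inhibitor gene known to respond to DNA damage and used here to check the radiation labels, averaged 45.8 CPM in mock and 573 CPM in irradiated samples, 39.7 and 332 CPM under vehicle, and 44.8 and 336 CPM under enzalutamide. Levels are in CPM scaled jointly over the 12 samples. The stretch of each gene that was counted is not given in the sources used here, so levels were not compared between genes.

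With t1 and t2 counts summed, radiation raised the nascent RNA of 3 family members, and no anti-apoptotic member passed the test. BBC3 rose about 5- to 7-fold and BAX about 3- to 5-fold in each of the 3 settings in which radiation was given. PMAIP1 was about 1.6-fold to 1.7-fold higher in all 3, and passed the test in the 1st batch and in the fit of both batches. The effector partner of BAX, BAK1, and the BH3-only genes BID, BIK and BCL2L11 did not pass. With t1 or t2 libraries taken alone, BAK1, BIK and the anti-apoptotic BCL2L1 did pass in the 1st batch, as described below.

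In the 1st batch 3 of the 10 members passed as higher, against 2% of the 25889 genes tested, and 0 passed as lower, against 0.819%. Under vehicle in the 2nd batch 2 members (BBC3 and BAX) passed as higher, against 0.743% of 28651 genes, and 0 as lower, against 0.353%. With enzalutamide present the same 2 genes passed as higher, against 0.625%, and 0 as lower, against 0.293%. In the fit that joined mock, vehicle and the corresponding irradiated samples of both batches, 3 members were higher, against 2.45% of 28209 genes, and 0 lower, against 1.69%. These calls come from edgeR's quasi-likelihood test at an adjusted p of 0.05. No member had an unadjusted p under 0.05 with a lower level in any of the 4 contrasts, and DESeq2 called 0 members lower as well. The median log2 fold change over the 10 members was 0.19 in the 1st batch, 0.21 under vehicle and 0.11 under enzalutamide, beside -0.0021, -0.0057 and -0.014 over all genes tested.

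**Figure D1:**
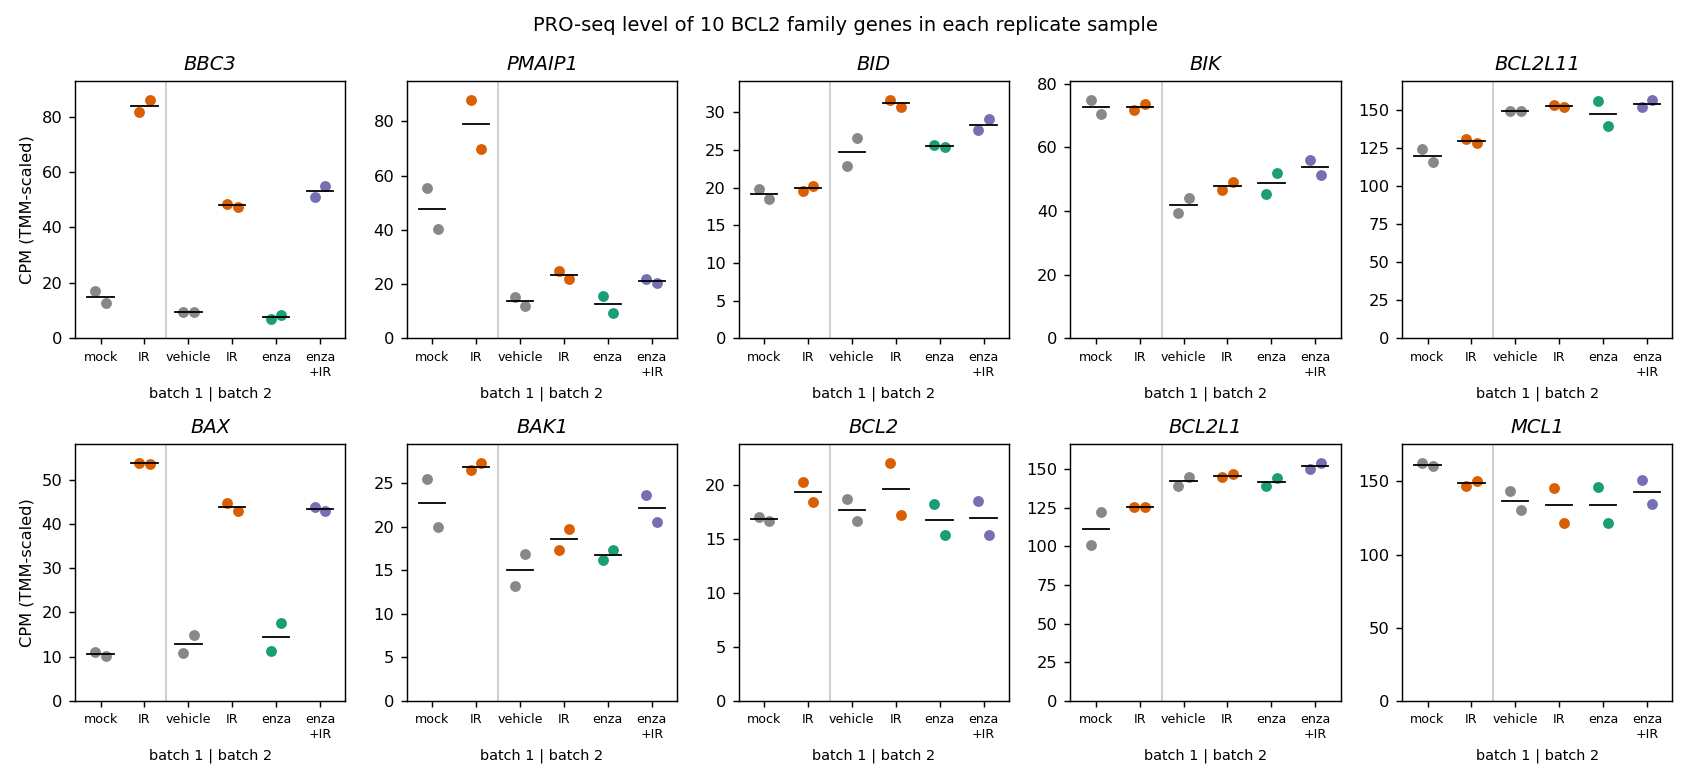
Levels of the 10 BCL2 family genes in CPM (vertical axes, each starting at 0) in the 6 groups. Points are replicate samples, short lines are the mean of 2, and a vertical line parts the batches. In BBC3 and BAX every irradiated sample lies above every unirradiated sample, while in BCL2, BCL2L1, MCL1 and BCL2L11 the groups of a batch lie close together.

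BBC3 encodes PUMA, a BH3-only protein that binds all the main anti-apoptotic members (ENSG00000105327, chr19:47220824-47232860, minus strand). Its level was 17.1 and 12.7 CPM in the mock replicates and 81.7 and 86.0 CPM in the irradiated replicates of the 1st batch. Under vehicle it was 9.31 and 9.44 CPM without radiation and 48.5 and 47.4 CPM with it. Under enzalutamide it was 7.01 and 8.48 CPM without radiation and 51.1 and 55.0 CPM with it. All 6 irradiated samples lay above all 6 unirradiated ones, with no overlap between the groups. The log2 fold change was 2.50 ± 0.14 (SE, n = 2 per group; adjusted p = 4.7e-07, edgeR) in the 1st batch, a 5.66-fold difference. It was 2.32 ± 0.12 under vehicle (edgeR adjusted p = 3.0e-07) and 2.76 ± 0.13 under enzalutamide (edgeR adjusted p = 1.74e-07). Ordered by mean level, the groups ran from the irradiated samples of the 1st batch (83.9 ± 3.02 CPM, SD, n = 2) through radiation with enzalutamide (53.05 ± 2.74), radiation with vehicle (47.9 ± 0.746), mock (14.9 ± 3.10) and vehicle (9.38 ± 0.092) to enzalutamide alone (7.75 ± 1.04). No neighbours in that order overlapped in their samples.

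PMAIP1 encodes NOXA, a BH3-only protein that binds MCL1 in particular (ENSG00000141682, chr18:59899996-59904305, plus strand). It measured 55.3 and 40.4 CPM in mock and 87.9 and 69.95 CPM in the irradiated samples of the 1st batch. Vehicle samples had 15.2 and 12.1 CPM, and irradiated vehicle samples 24.6 and 21.8 CPM. Enzalutamide samples had 15.4 and 9.46 CPM, and irradiated enzalutamide samples 21.7 and 20.5 CPM. Within each setting the irradiated samples were above the unirradiated ones, but the batches stood apart: the mock samples were above every irradiated sample of the 2nd batch. That gap lies between batches that also differ in the vehicle named on the label, and these cannot be told apart. The log2 fold change was 0.73 ± 0.15 (SE; edgeR adjusted p = 0.0200) in the 1st batch and 0.72 ± 0.10 in both batches together (edgeR adjusted p = 0.000148). The 1st-batch call ended in a fit of the 8 unsummed libraries with the t number as a term (0.74, edgeR adjusted p = 0.118). Under vehicle it was 0.73 ± 0.18 and did not pass (edgeR adjusted p = 0.0991), and under enzalutamide it was 0.70 ± 0.19 and did not pass either (edgeR adjusted p = 0.168). DESeq2 put both of the latter past the threshold (adjusted p = 0.0249 and 0.0483). With single samples of the 2nd batch left out, the log2 fold change ran from 0.58 to 0.90 under vehicle. It ran from 0.44 to 1.10 under enzalutamide, the highest being without replicate 3 of enzalutamide alone.

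BAX, the pore former that moves from the cytosol to mitochondria (ENSG00000087088, chr19:48954875-48961798, plus strand), had 11.0 and 10.1 CPM in mock and 53.8 and 53.5 CPM in irradiated samples of the 1st batch. The corresponding pairs were 10.8 and 14.9 CPM against 44.7 and 42.9 CPM under vehicle. They were 11.3 and 17.7 CPM against 43.7 and 42.9 CPM under enzalutamide. Among the unirradiated groups vehicle overlapped mock and enzalutamide, while the mock samples lay below both enzalutamide samples. The irradiated groups of the 2nd batch overlapped each other, and all irradiated samples lay above all unirradiated ones. The log2 fold change was 2.35 ± 0.13 (SE; edgeR adjusted p = 4.69e-07) in the 1st batch, 1.73 ± 0.19 under vehicle (edgeR adjusted p = 0.000202) and 1.57 ± 0.19 under enzalutamide (edgeR adjusted p = 0.000604). These correspond to 5.11-fold, 3.31-fold and 2.98-fold differences.

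BAK1, the effector that resides on mitochondria (ENSG00000030110, chr6:33572552-33580276, minus strand), did not pass in any of the 4 radiation contrasts. Mock samples had 25.5 and 19.99 CPM and irradiated ones 26.5 and 27.3 CPM. The 2nd batch had 13.2 and 16.9 CPM in vehicle, 17.3 and 19.8 CPM in irradiated vehicle, 16.2 and 17.3 CPM in enzalutamide, and 23.7 and 20.6 CPM in irradiated enzalutamide samples. The irradiated samples were above the unirradiated ones in each setting, by log2 0.25, 0.26 and 0.37. The 1st of these averages over t1 libraries, which rose by log2 0.83, and t2 libraries, which fell by 0.50. In both batches together the value was 0.24, with an unadjusted p of 0.0311 and an adjusted p of 0.246 (edgeR).

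The remaining BH3-only genes are known for control after transcription as well as by it: BID is activated by caspase-8 cleavage, BCL2L11 encodes BIM, a strong activator of the effectors, and BIK acts at the endoplasmic reticulum. BID (chr22:17734138-17774665) gave 19.8 and 18.4 CPM in mock and 19.6 and 20.2 CPM in irradiated samples, which overlapped. Under vehicle it gave 22.9 and 26.6 CPM without and 31.6 and 30.7 CPM with radiation, a log2 difference of 0.29 with an unadjusted p of 0.0196 and an adjusted p of 0.346 (edgeR). Under enzalutamide it gave 25.7 and 25.4 CPM without and 27.7 and 29.0 CPM with radiation, a difference of 0.12. BID had separated groups in both settings of the 2nd batch, but with 2 samples a group such separation is weak evidence. BID did not pass the test over all genes in either setting. BIK (chr22:43110750-43129712) ran from 70.6 to 74.9 CPM over the 4 samples of the 1st batch, with overlapping groups, and from 39.5 to 56.05 CPM over the 8 samples of the 2nd. BCL2L11 (chr2:111120914-111168445) ran from 116 to 131 CPM in the 1st batch, with the irradiated samples above the mock ones, and from 139 to 157 CPM in the 2nd. The log2 radiation differences of BIK were 0.0035, 0.16 and 0.11 in the 1st batch, under vehicle and under enzalutamide, and those of BCL2L11 were 0.11, -0.0055 and 0.027. The 1st-batch value of BIK averages over t1 libraries that rose and t2 libraries that fell, as given below.

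No anti-apoptotic gene passed in any radiation contrast with t1 and t2 counts summed, though BCL2L1 passed as higher with t2 libraries alone. BCL2 (chr18:63123346-63320090), the founding member of the family, had 17.0 and 16.6 CPM in mock, 20.2 and 18.4 CPM in irradiated, 18.7 and 16.6 CPM in vehicle, and 22.1 and 17.2 CPM in irradiated vehicle samples. With enzalutamide it had 18.2 and 15.4 CPM, and 18.5 and 15.3 CPM after radiation as well. Its log2 differences were 0.20, 0.12 and -0.033 in the 3 settings, and the groups of the 2nd batch overlapped. BCL2L1 (chr20:31664452-31723963), whose long product BCL-XL guards mitochondria in many epithelial cells, had 101 and 122 CPM in mock and 126 and 125 CPM in irradiated samples. In the 2nd batch it ran from 139 to 154 CPM over the 8 samples, and its log2 radiation differences were 0.17, -0.0010 and 0.069. MCL1 (chr1:150574558-150579610), a short-lived protein that depends on continued transcription, had 163 and 160.3 CPM in mock and 147 and 150.1 CPM in irradiated samples. It had 143 and 130.5 CPM in vehicle, 146 and 121 CPM in irradiated vehicle, 146 and 121 CPM in enzalutamide, and 151 and 135 CPM in irradiated enzalutamide samples. Its log2 differences were -0.12, -0.074 and 0.060, and its irradiated samples lay below mock in the 1st batch and overlapped the unirradiated ones in the 2nd. The 95% intervals of the radiation effect lay inside a 1.5-fold change either way for 7 of the 10 members in the 1st batch, 6 under vehicle and 6 under enzalutamide, as fitted to the summed counts. In the 1st batch this covers BAK1 and BIK, whose t1 and t2 libraries changed in opposite directions, so it limits their averaged value only. The genes outside these counts were the 3 that rose and, in the 2nd batch, BAK1.

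**Figure D2:**
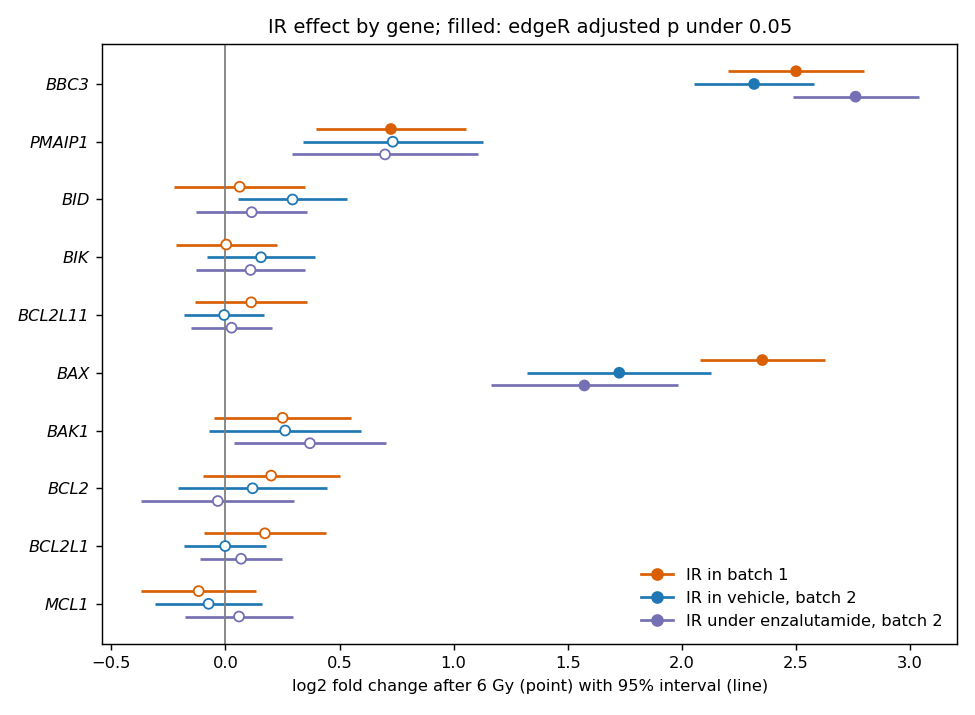
Log2 fold change after radiation (horizontal axis) for each of the 10 genes in the 1st batch, under vehicle and under enzalutamide, with 95% confidence intervals as lines and filled points where the edgeR adjusted p was under 0.05. BBC3 and BAX stand far to the right of 0 in all 3, and PMAIP1 stands near 0.7 in all 3. The other 7 genes lie nearer to 0. The intervals of BAK1 under enzalutamide (0.037 to 0.704) and BID under vehicle (0.055 to 0.533) exclude 0, though neither gene passed.

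Enzalutamide was compared with vehicle, averaged over samples with and without radiation, to ask whether blocking the androgen receptor moved these genes. None of the 10 members passed (edgeR), against 0.0612% of the 27768 genes tested, and DESeq2 called 0 as well. The member with an unadjusted p under 0.05 was BIK, with 45.5 and 51.9 CPM under enzalutamide beside 39.5 and 44.3 CPM under vehicle without radiation, and 56.05 and 51.4 beside 46.7 and 49.1 CPM with it. Its log2 difference was 0.18 ± 0.072 (SE; unadjusted p = 0.024, adjusted p = 0.755, edgeR). All 10 intervals lay inside a 1.5-fold change. The interaction, which asks whether the radiation effect differed with enzalutamide, passed for 0 members and for 0% of 28651 genes (343 genes had an unadjusted p under 0.05). DESeq2 also called 0 genes, and without the filter on low counts edgeR called 32 genes, none of them a member. BBC3 was the member with an unadjusted p under 0.05: its radiation effect was larger by log2 0.44 under enzalutamide (95% interval 0.065 to 0.824, unadjusted p = 0.0252, adjusted p = 1, edgeR), from lower unirradiated and higher irradiated samples. For PMAIP1 the difference was -0.034 (95% interval -0.60 to 0.53) and for BAX -0.15 (95% interval -0.72 to 0.42). For the interaction, 6 of the 10 intervals lay inside a 1.5-fold change, and those of BBC3, PMAIP1 and BAX did not.

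The radiation effect was also compared between the batches, as the 1st-batch effect minus the effect under vehicle. None of the 10 members passed (edgeR), against 0.106% of 29195 genes, and DESeq2 called 0. BAX had an unadjusted p under 0.05, with an effect larger by log2 0.60 in the 1st batch (95% interval 0.18 to 1.02, unadjusted p = 0.00742, adjusted p = 0.681, edgeR). BBC3 differed by 0.16 and PMAIP1 by -0.034. MDM2, which encodes a ubiquitin ligase and is known to respond to DNA damage, rose by log2 3.11 in the 1st batch and by 2.10 under vehicle, and that difference passed (0.99, edgeR adjusted p = 0.0268).

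Within the 1st batch the radiation effect depended on the t number for several members. Tested in the 8 unsummed libraries, a comparison added after the data had been seen, it differed between t2 and t1 libraries for 5 of the 10 members (edgeR), against 43.7% of 23335 genes. The share of members was thus near the share of all genes. That fit had no term for the replicate, so the t1 and t2 libraries of 1 replicate counted as separate samples. BAK1 measured 24.7 and 16.8 CPM in mock t1 libraries and 30.3 and 40.9 CPM in irradiated ones, a rise of log2 0.83 (edgeR adjusted p = 0.00799). In t2 libraries it measured 25.6 and 24.2 CPM in mock and 19.02 and 16.3 CPM in irradiated ones, and fell by 0.50 (edgeR adjusted p = 0.0193). BAK1 thus changed in opposite directions in the t1 and t2 libraries. BIK did likewise, with 75.8 and 63.4 CPM in mock and 80.8 and 110.4 CPM in irradiated t1 libraries (log2 0.48, edgeR adjusted p = 0.0473). In t2 libraries it had 73.1 and 79.7 CPM in mock and 53.9 and 43.9 CPM in irradiated samples (log2 -0.64, edgeR adjusted p = 0.000745). BCL2L1 had a log2 difference of -0.036 in t1 libraries and rose by 0.45 in t2 libraries (edgeR adjusted p = 0.00683). BBC3 rose by log2 2.98 and 2.04 in t1 and t2 libraries and PMAIP1 by 1.075 and 0.43, while BAX rose by 2.42 and 2.34. The summed values of BIK and BAK1 therefore average over libraries that went opposite ways. Paired t1 and t2 libraries of 1 replicate differed by a chi-square of 7.65 to 34.7 for each degree of freedom, and libraries of different replicates with the same t number by 3.28 to 7.14.

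**Figure D3:**
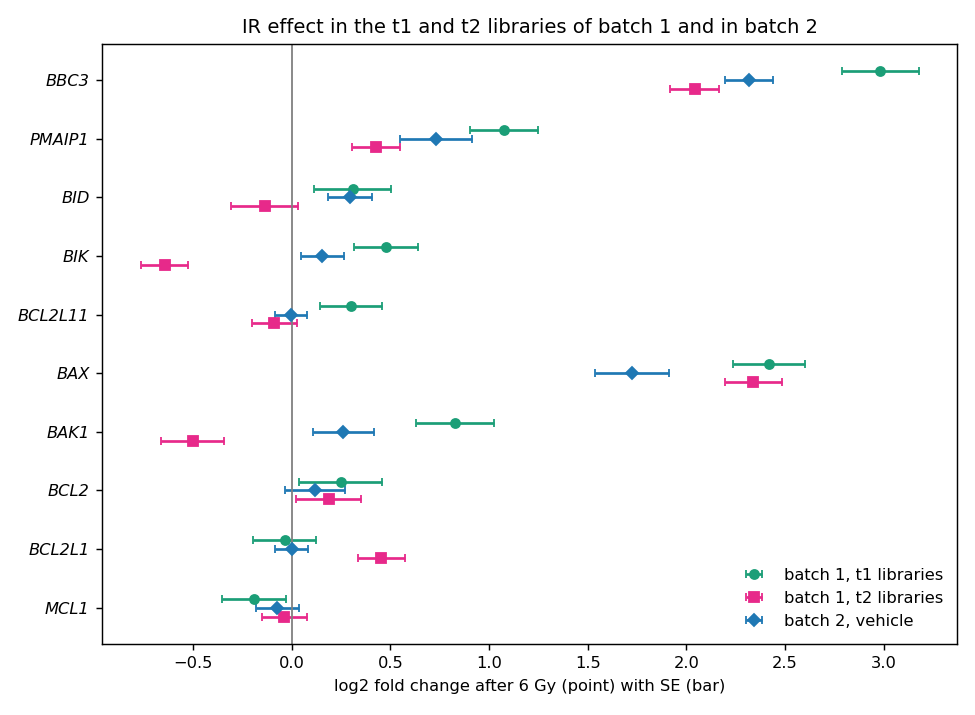
Log2 fold change after radiation in the 1st batch, computed from t1 (circles) and from t2 libraries (squares), beside the 2nd batch under vehicle (diamonds), for each of the 10 genes, with the standard error as bars. BBC3, PMAIP1 and BAX are above 0 with both, and BIK and BAK1 lie above 0 with t1 and below 0 with t2 libraries.

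After radiation the 3 genes that rose held a larger share of the 10 genes' counts. These genes were picked because they rose, so their share restates that rise and is no separate result. BBC3, PMAIP1 and BAX together took 12.2% ± 2.08 (SD, n = 2) of the 10 genes' counts in mock and 28.5% ± 0.978 in irradiated samples of the 1st batch. Their share went from 6.37% ± 0.100 to 17.3% ± 0.051 under vehicle and from 6.15% ± 0.459 to 17.1% ± 0.469 under enzalutamide. The anti-apoptotic genes' mean share went from 48.5% to 38.7%, from 52.6% to 45.0% and from 51.6% to 45.3%. The 10 genes' summed level was 608 and 587 CPM in mock and 765 and 753 CPM in irradiated samples, so the lower anti-apoptotic share accompanied a larger total, not lower levels that passed a test. A share depends on the length counted for each gene, and only its change between groups is described.

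**Figure D4:**
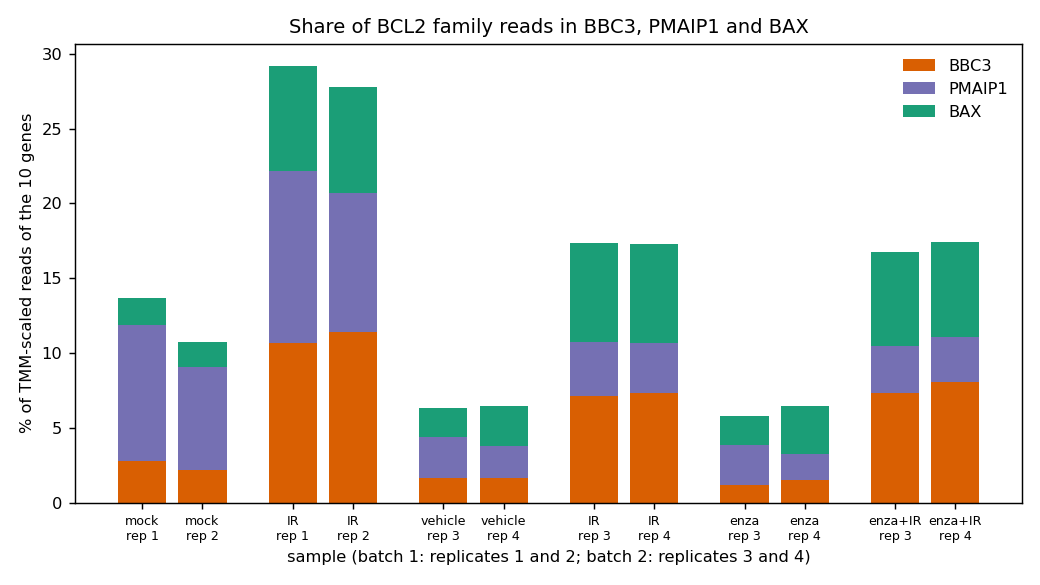
Share of the 10 genes' counts (percent, vertical axis) held by BBC3, PMAIP1 and BAX, stacked, with 1 bar for each of the 12 samples. The stacks of irradiated samples are higher than those of their unirradiated counterparts in each setting.

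The other genes of the pathway came from 3 lists. Of 13 further BCL2 family genes, 12 could be tested in the 1st batch, where 1 (BNIP3, log2 0.43, edgeR adjusted p = 0.0398) was higher and 0 lower, with a median of 0.022. Over all genes tested there, 2% were higher and 0.819% lower, with a median of -0.0021. DESeq2 did not call BNIP3 there (adjusted p = 0.178). BNIP3, which encodes a mitochondrial protein of mitophagy, also passed in both batches together (log2 0.33, edgeR adjusted p = 0.00775), but not with t2 libraries alone (adjusted p = 0.131). Under vehicle and under enzalutamide all 13 were tested and 0 passed (edgeR). Of 20 genes of the mitochondrial apoptosis machinery, such as caspases and their inhibitors, 1 was lower and 0 higher in each radiation contrast: BIRC5 (survivin), an inhibitor of apoptosis protein that also acts in cell division. Among all genes tested, 0.819% were lower in the 1st batch, 0.353% under vehicle, 0.293% under enzalutamide and 1.69% in both batches together. BIRC5 averaged 47.8 and 23.6 CPM in mock and irradiated samples, 53.8 and 37.4 CPM under vehicle, and 56.6 and 39.7 CPM under enzalutamide. Its log2 fold change was -1.01 (edgeR adjusted p = 0.00012), -0.56 (0.0091) and -0.55 (0.0127), and leaving out single samples of the 2nd batch ended the last 2 calls (adjusted p up to 0.27). Of 14 upstream regulators, E2F1, a cell cycle factor that can drive BH3-only genes, was higher under vehicle (log2 0.60, edgeR adjusted p = 0.00673) and in both batches together, and no other regulator passed. The share of all genes that were higher was 0.743% under vehicle and 2.45% in both batches together. E2F1 had 0.33 in the 1st batch (edgeR adjusted p = 0.179) and 0.36 under enzalutamide (edgeR adjusted p = 0.193). None of these genes passed for enzalutamide, the interaction or the batch difference.

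The nearest tested protein-coding genes on either side of the 3 risen members were checked because counting may not have used strand. SAE1 and CCDC9, 10188 and 23665 bp from BBC3, did not pass in any radiation contrast, and neither did CCBE1 and CDH20 beside PMAIP1 or DHDH beside BAX. FTL, which encodes ferritin light chain and starts 3511 bp beyond BAX on the same strand, had log2 differences of 0.42 in the 1st batch, 0.54 under vehicle and 0.40 under enzalutamide, none of which passed. It passed in both batches together (0.46, edgeR adjusted p = 0.014), a call that ended without replicate 3 of irradiated vehicle (adjusted p = 0.0544) and with t1 libraries alone (adjusted p = 0.509). Whether reads beyond the end of BAX reached FTL was not tested. MIR3190, a microRNA gene inside BBC3, had at most 30 counts in a library and log2 differences of 1.36 in the 1st batch (edgeR adjusted p = 0.140) and 0.99 in both batches together (edgeR adjusted p = 0.142). BCL2L1-AS1, which overlaps BCL2L1, had at most 36 counts in a library, and the pseudogene BAK1P1 had 1 to 13. No count was available for LOC124904379, which overlaps BCL2, or LOC124904883, which overlaps BCL2L1. Pseudogenes were sought by name and not by sequence.

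Likeness of pattern was measured as Pearson's r over the 12 samples after centring log2 levels within each batch, among 18686 genes with a mean of at least 50 counts. In BBC3 and BAX all irradiated samples lay above all unirradiated ones, and in PMAIP1 they did so within each setting. The r values therefore hold that step together with differences between replicates, which were not separated, and carry no p. BBC3 was most like FDXR (r = 0.994, Spearman's rho = 0.860), PHLDA3 (0.991, 0.790) and LRPAP1 (0.991, 0.902). PMAIP1 was most like ZNF30 (0.971, 0.965), the gene ENSG00000285884 (0.971, 0.951) and S100A11 (0.962, 0.937). BAX was most like KANK3 (0.997, 0.944), the gene ENSG00000277453 (0.996, 0.937) and KIF1C (0.994, 0.965). Between the members, r was 0.970 for BBC3 and BAX, 0.875 for BBC3 and PMAIP1, and 0.795 for PMAIP1 and BAX.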

How the data were processed

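PRO-seq reads from LNCaP cells were reduced by the authors to raw counts per Ensembl gene, deposited as 1 table per batch. Per the submitters' processing notes, cutadapt 1.8.1, Bowtie2 2.4.4, SAMtools 1.9 and hg38 were used. The counter, annotation, counted interval, strand setting and duplicate removal are not given in the sources used here. Identifiers were matched to symbols by table (60463 of 60605).

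The t1 and t2 counts of each replicate were summed in the 1st batch. Genes were filtered with filterByExpr, scaled by TMM and tested with edgeR 4.0.16 (quasi-likelihood F test, Benjamini-Hochberg adjustment over all genes, threshold 0.05) in R 4.3.3. The 1st batch, the 2nd batch as 4 groups, and both batches with a batch term were fitted separately. Alternatives were DESeq2 1.42.0, no filter, a replicate block, single t numbers, fewer groups and leaving out each replicate. The model was tested on simulated data. The members and gene lists were chosen with earlier results of these data known. Text names every member, listed genes past the threshold, nearest neighbours and the 3 most alike genes.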

Additional observations from a re-analysis of the deposited data

Results flagged for a closer look

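The radiation effect in the 1st batch differed between t2 and t1 libraries for 5 members. The difference itself was tested in 8 libraries without a replicate term (edgeR, adjusted over 23335 genes, of which 43.7% passed). The share of members was near that of all genes, so the difference is not particular to these members. The t2 minus t1 difference in log2 fold change was -1.34 for BAK1 (adjusted p = 0.00133), -1.13 for BIK (0.000965), -0.95 for BBC3 (0.00711), -0.65 for PMAIP1 (0.0376) and 0.48 for BCL2L1 (0.0470). BAK1 and BIK changed sign, BBC3 and PMAIP1 were higher after radiation with both, and BCL2L1 passed with t2 libraries alone. The meaning of the t number is not given in the sources used here, and why the libraries differ was not tested.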

How the results depend on the processing

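Of 960 values of single members under other settings, 941 stayed on the same side of the threshold without a reversed call, 16 newly passed, 1 no longer passed and 2 reversed. Among all these values 75 changed sign with neither value past the threshold. With t1 libraries alone 5 members passed as higher in the 1st batch, where 3995 of 23134 genes passed in either direction. With t2 libraries alone BBC3, PMAIP1, BAX and BCL2L1 passed as higher, and 2 passed as lower, BIK (-0.64) and BAK1 (-0.50). In that fit 9800 of 21930 genes passed in either direction. With t2 libraries the batch difference passed for 1 member as higher and 2 as lower, and for 5646 of 27773 genes in either direction. The cause was not tested. PMAIP1 in the 1st batch did not pass with the 8 libraries and a t term (0.74, edgeR adjusted p = 0.118). Counts over all genes moved more: 731 in the 1st batch became 325 with a t term and 9800 with t2 libraries. Across genes, the difference between the 2 replicates of 1 group correlated with that of another group at 0.147 in the 1st batch. In the 2nd batch these correlations ran from 0.0981 to 0.245, and the labels tie the replicate number to nothing shared. With the replicate block 2332, 1315 and 951 genes passed in the 1st batch, under vehicle and under enzalutamide, against 731, 314 and 263 without it, and 272 against 17 for enzalutamide. PMAIP1 under vehicle then passed (edgeR adjusted p = 0.000365), as it did under enzalutamide (0.000954), and the block changed no other member's call. With 2 samples a group and 3438642 counts in the smallest library, the standard errors of the members' radiation effects were log2 0.082 to 0.189 within a batch.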
